A study of Mus musculus with 46 samples.

Results

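Propionylation and acetylation of lysine 5 of histone H4 (H4K5pr and H4K5ac) were compared in 8 native ChIP-seq peak lists from mouse liver, 4 for each mark, out of 46 samples of which 38 had a peak list. They were all libraries of either mark, and each H4K5pr library was set against the H4K5ac library of the same chromatin preparation, with which it shares an input label. There were 4 such preparations, named WT 1B, WT 2B, PA 1B and PA 2B, and mark was the main contrast with genotype as a term. All mice were females of 11 weeks on the FVB background and were fed chow. WT mice were wild type, and PA mice were Pcca-/- carrying a hypomorphic A138T form of propionyl-CoA carboxylase, a model of propionic acidemia in which the residual enzyme still works in part. Each preparation used 40 to 60 mg of frozen liver digested with 20 U of micrococcal nuclease for 15 min, so every value is an average over all cell types of the liver. The H4K5ac antibody was ab51997 of abcam and the H4K5pr antibody PTM-219RM of PTM Bio, so mark and antibody cannot be told apart in any comparison below.

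Lysine acylation of the H4 tail neutralises a positive charge and is placed at active promoters and enhancers by histone acetyltransferases such as p300. The acetyl group comes from acetyl-CoA and the propionyl group from propionyl-CoA, the substrate that propionyl-CoA carboxylase removes in mitochondria. The same lysine of 1 histone tail can carry only 1 of these groups at a time, but nucleosomes of the same region in different cells, or the other H4 of the same nucleosome, can carry the other. Hepatocytes make up most of the liver's mass and secrete most plasma proteins, while sinusoidal endothelial cells, Kupffer cells and stellate cells line and populate the sinusoids.

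H4K5pr occupied fewer but wider peaks than H4K5ac in all 4 preparations. The H4K5ac lists held 61719 and 56312 peaks in WT 1B and WT 2B and 66080 and 70886 in PA 1B and PA 2B, and the H4K5pr lists of the same preparations held 48091, 48129, 57468 and 58694. The peak number of H4K5pr was 0.832 times that of H4K5ac, and its covered length was 0.892 times as long, 119 ± 18.2 Mb against 133 ± 20.1 Mb (SD, n = 4). The median peak was 1507 ± 23.1 bp wide in H4K5pr and 1071 ± 104 bp in H4K5ac, and the ranges of the marks did not overlap. With 4 pairs the exact two-sided permutation test within preparations cannot go below p = 0.125, which is the value reached by each of these measures. The extra H4K5ac peaks were short. Peaks under 1000 bp made up 48.2 ± 2.56% of H4K5ac peaks and 35.4 ± 1.01% of H4K5pr peaks, and with only peaks of at least 1000 bp kept both differences turned, to 0.0539 for peak number and -0.0918 for median width as log2 of H4K5pr over H4K5ac. Away from gene starts the median width was 856 ± 61.6 bp in H4K5ac and 1220 ± 20.4 bp in H4K5pr, whereas at gene starts it was 2546 ± 286 and 2650 ± 259 bp and was greater for H4K5pr in 3 of 4 preparations. Peaks wider than 5000 bp were fewer in H4K5pr in 4 of 4 preparations, with 4618 ± 1156 against 5888 ± 1309.

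**Figure D1:**
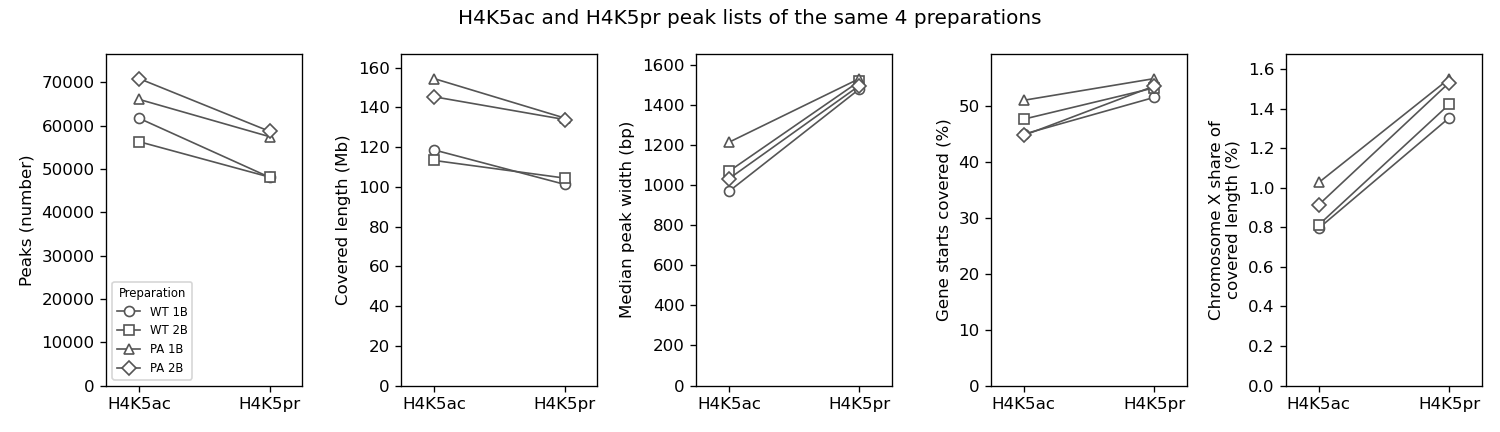
Peak number, covered length, median peak width, percent of listed gene starts under a peak and chromosome X share of covered length in the H4K5ac and H4K5pr lists, with lines joining the 2 lists of a preparation. Every line falls for peak number and covered length and rises for median width, starts covered and the X share.

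The marks shared most of their covered bases. Within a preparation, 72.8 ± 2.03% of the H4K5ac bases lay in H4K5pr peaks and 81.7 ± 2.37% of the H4K5pr bases lay in H4K5ac peaks, with a Jaccard index of 0.626 ± 0.0215 (SD, n = 4). The Jaccard index between the replicates of a genotype was 0.543 in WT and 0.575 in PA for H4K5ac, and 0.679 and 0.685 for H4K5pr. The 2 marks of 1 liver thus overlapped more than H4K5ac of 2 livers and less than H4K5pr of 2 livers. Of the H4K5ac peaks, 34.8 ± 2.81% touched no H4K5pr peak. Their median width was 500 bp, the shortest width in the lists, and 1.51 ± 0.155% of them lay at a gene start. Of the H4K5pr peaks, 20.8 ± 1.59% touched no H4K5ac peak and 7.76 ± 1.26% of these lay at a gene start.

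At gene starts H4K5pr was the more complete mark. Starts were taken from RefSeq for 17274 protein-coding genes, and H4K5ac covered 45.0% and 47.7% of them in WT 1B and WT 2B and 51.1% and 44.8% in PA 1B and PA 2B. H4K5pr covered 51.6%, 53.3%, 54.9% and 53.6% of them in the same order, and the lowest H4K5pr library stood above the highest H4K5ac library. In all 4 H4K5pr libraries 8475 starts were covered, in all 4 H4K5ac libraries 6469, and in all 8 libraries 6385. H4K5pr exceeded H4K5ac in 4 of 4 preparations at every distance from 1000 bp before to 1300 bp after the start, with 53.4 ± 1.38% against 47.1 ± 2.93% at the start itself. Upstream the order turned, and at 2000 bp before the start H4K5ac covered 18.2 ± 3.66% and H4K5pr 15.8 ± 3.36%, with H4K5pr lower in 4 of 4.

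**Figure D2:**
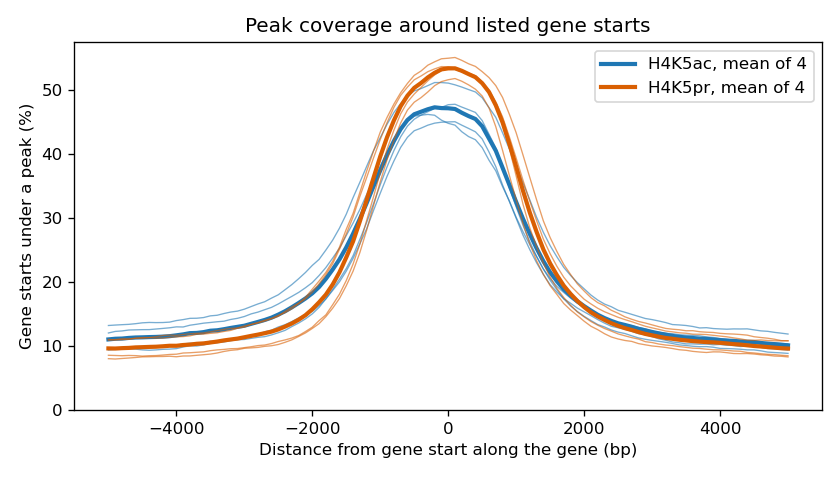
Percent of 17274 listed gene starts under a peak (vertical axis) by distance from the start in bp along the gene (horizontal axis), with a thin line for each of the 4 libraries of a mark and a thick line for their mean. The mean H4K5pr line stands above the mean H4K5ac line around the start, with 53.4% against 47.1% at the start itself. Farther upstream the order of the means turns. Lines of single libraries from different preparations cross nearer to the start.

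Some starts lay in a gap of the mark, with no peak at the start but peaks within 1000 bp on both sides. H4K5ac had 294, 191, 185 and 383 such starts in WT 1B, WT 2B, PA 1B and PA 2B, and H4K5pr had 66, 33, 43 and 70. The H4K5pr number was 0.201 times the H4K5ac number and was lower in 4 of 4 preparations. All 4 H4K5pr and no H4K5ac library covered the start of 78 genes (0.452% of the starts), and the reverse held for 2 genes (0.0116%), Gm5111 and Tmem52b. The 78 genes, whose examples here were chosen after their values were seen, included the albumin gene Alb, the transcription factors Sp1 and Yy1, the clock repressor Bhlhe41, the histone deacetylase Hdac7 and the translation initiation factor Eif4e. On chromosome X they included G6pdx, the first enzyme of the pentose phosphate pathway, the lysosomal membrane gene Lamp2 and the RNA-binding protein gene Fmr1.

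The difference at starts was larger where the promoter was richer in CG dinucleotides, the sites of DNA methylation. CG was counted in the 300 bases from 250 before to 50 after each of the 17274 starts (RefSeq, GRCm38.p6), and starts were split into 4 classes of similar size by that count. In the class with 0 to 4 CG, H4K5ac covered 12.3 ± 1.06% and H4K5pr 13.0 ± 1.02% of starts, a difference of 0.617 percentage points. The difference was 4.80 points with 5 to 14 CG, 8.42 points with 15 to 25 CG, and 12.1 points with 26 to 67 CG, where H4K5ac covered 68.9 ± 6.35% and H4K5pr 81.0 ± 1.62% (SD, n = 4). H4K5pr was higher in 4 of 4 preparations in every class. Starts on chromosome X did not follow this order, with a median of 8 CG and a difference of 14.3 points, from 11.0 to 17.5 over the preparations. The 78 starts covered by H4K5pr alone had a median of 26 CG, against 14 for all starts. The motif TATAAA, which holds no CG and was searched on both strands, was in 2.56% of these 78 promoters and in 13.3% of all promoters of that length. In the 4 classes of rising CG count it was in 28.8%, 12.2%, 6.39% and 3.07% of all promoters. The 78 promoters held 0 to 57 CG, so no single class matches them, and their share rests on 2 promoters. Of the 15 genes called wider in H4K5pr in the windows described below that have a listed start, 2 held it (13.3%). These are descriptions of the letters in the window and do not show a bound factor.

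Promoters of genes where the marks parted, at the start or in the window around it, are shown because they span this range of CG content. Each is read 5′ to 3′ along the gene with every CG in capitals. Hic1 (chr11:75168103-75168402, minus strand, 29 CG), Clec4g (chr8:3720602-3720901, minus strand, 4 CG) and Alb (chr5:90460620-90460919, plus strand, 3 CG) are from the H4K5pr side, and Tppp2 (chr14:51918511-51918810, plus strand, 1 CG) is from the H4K5ac side. Alb is among the 78 starts covered by H4K5pr alone. Hic1, Clec4g and Tppp2 passed in the 5000 bp windows described below, and are not among the starts covered by every library of 1 mark alone.
Hic1: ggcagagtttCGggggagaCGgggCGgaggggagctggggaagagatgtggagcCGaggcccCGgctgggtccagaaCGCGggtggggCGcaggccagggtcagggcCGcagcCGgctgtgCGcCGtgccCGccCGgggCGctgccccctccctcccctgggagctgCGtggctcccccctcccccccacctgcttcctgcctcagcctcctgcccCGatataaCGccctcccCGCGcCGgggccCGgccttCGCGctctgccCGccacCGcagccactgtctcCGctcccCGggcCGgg
Clec4g: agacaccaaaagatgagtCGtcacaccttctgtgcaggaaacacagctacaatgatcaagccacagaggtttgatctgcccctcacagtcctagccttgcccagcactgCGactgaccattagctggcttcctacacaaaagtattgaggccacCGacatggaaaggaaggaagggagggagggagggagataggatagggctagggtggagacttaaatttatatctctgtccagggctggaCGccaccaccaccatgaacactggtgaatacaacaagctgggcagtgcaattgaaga
Alb: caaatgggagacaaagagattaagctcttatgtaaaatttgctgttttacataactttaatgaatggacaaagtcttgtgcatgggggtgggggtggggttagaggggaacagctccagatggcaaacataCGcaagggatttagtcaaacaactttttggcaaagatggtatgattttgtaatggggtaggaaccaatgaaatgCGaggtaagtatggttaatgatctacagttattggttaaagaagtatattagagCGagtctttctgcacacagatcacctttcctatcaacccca
Tppp2: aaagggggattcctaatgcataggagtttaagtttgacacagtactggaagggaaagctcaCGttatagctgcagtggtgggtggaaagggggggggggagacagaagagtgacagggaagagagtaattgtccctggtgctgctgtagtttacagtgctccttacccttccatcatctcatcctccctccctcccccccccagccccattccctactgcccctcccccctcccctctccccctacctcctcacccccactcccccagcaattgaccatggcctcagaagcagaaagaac

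Chromosome X held the largest difference between the marks of any chromosome. Its share of the covered length was 0.796% and 0.813% of H4K5ac in WT 1B and WT 2B and 1.03% and 0.915% in PA 1B and PA 2B, and 1.35%, 1.42%, 1.55% and 1.53% of H4K5pr in the same order. The lowest H4K5pr value stood above the highest H4K5ac value, and the mean ratio within preparations was 1.66, from 1.51 to 1.75 (exact permutation p = 0.125, the smallest that 4 pairs allow). On the log2 scale this is 0.73 ± 0.09 (SD, n = 4), while the mean differences of the 19 autosomes lay between -0.08 and 0.05. The ratio was no smaller with equal numbers of peaks (0.81 on the log2 scale) or with peaks of at least 1000 bp (0.91).

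**Figure D3:**
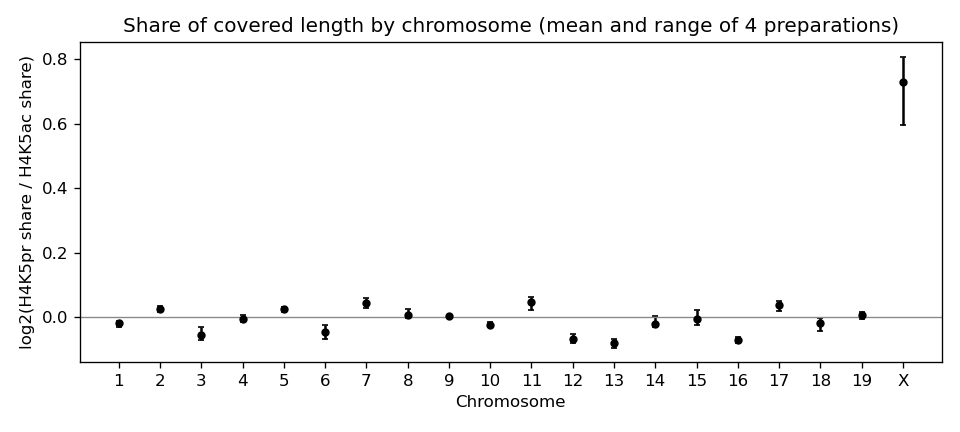
Log2 ratio of the H4K5pr share to the H4K5ac share of covered length (vertical axis) for each chromosome (horizontal axis), as the mean with the lowest and highest of 4 preparations. Chromosome X stands at 0.73 and the means of the autosomes lie between -0.08 and 0.05.

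The same held for the starts of X-linked genes. H4K5ac covered 16.7 ± 4.24% and H4K5pr 31.0 ± 2.86% of 817 X starts, against 48.6 ± 2.87% and 54.5 ± 1.31% of autosomal starts. All 4 libraries covered 37 X starts in H4K5ac and 199 in H4K5pr. Among starts that lay under H3K9ac, a mark of active promoters, in 4 of 4 libraries, which come from other preparations of the same genotypes (labelled A), H4K5ac covered 45.8 ± 11.8% of 281 X starts and 80.8 ± 4.54% of 8680 autosomal starts. H4K5pr covered 84.6 ± 6.91% and 91.2 ± 1.81% of the same starts, so the X starts stood nearer to the autosomal ones in H4K5pr. Of 353 X-linked genes measured in the windows described below, 344 had a wider mean in H4K5pr, with a median difference of 731 bp against 114 bp for autosomal genes. Genes with no H4K5ac in any library, 277 over all chromosomes, could be wider only in H4K5pr. They were not taken out of these X values, and their number on X was not counted. Females carry an inactive X in each cell, on which most genes are silent, and a few genes escape silencing. For the escape genes Ddx3x, Kdm6a, Kdm5c and Eif2s3x, chosen after their values were seen, the window difference was 349, 412, 533 and 250 bp, and none of them passed the test. Alleles were not separated, and the part of the inactive X in these values was not tested.

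The H4K12 marks of the same preparations did not show this order. Chromosome X took 1.26 ± 0.0683% of the H4K12ac bases and 1.02 ± 0.0511% of the H4K12pr bases, so the propionyl mark had the smaller X share there, with a ratio of 0.808. H4K5ac was the lowest and H4K5pr the highest of the 4 marks. The difference between the sites was 1.04 on the log2 scale and had the same sign in 4 of 4 preparations (exact permutation p = 0.125). Median peak width also went the other way at H4K12, with 1307 ± 52.3 bp for H4K12ac and 1175 ± 79.5 bp for H4K12pr, and H4K12ac covered 53.8 ± 1.30% of gene starts, close to H4K5pr.

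Gene by gene, the covered bases were counted in a window of 2500 bp on each side of the gene start, and 13355 genes were tested, those with coverage in 2 or more of the 8 libraries. In limma with Benjamini-Hochberg adjustment, 20 genes were wider in H4K5pr (0.15% of those tested) and 10 were wider in H4K5ac (0.0749%), and the median gene was 124 bp wider in H4K5pr. With preparation as a block no gene passed (0.0%, lowest adjusted p = 0.067, with 1651 and 443 genes at an unadjusted p under 0.05), and none passed in any of the 4 fits that left out 1 preparation (lowest adjusted p between 0.0801 and 0.155). All 30 genes kept their direction in those 5 fits. The split was 36 wider in H4K5pr and 8 wider in H4K5ac with equal numbers of peaks, and 56 and 6 with equal covered length. With quantile normalization it was 5 and 2, the median difference turned to -15.6 bp, and 845 and 877 genes had an unadjusted p under 0.05. With listed gene starts only, 15 of 10625 genes passed as wider in H4K5pr (0.141%) and 7 in H4K5ac (0.0659%). No start was listed for Gpihbp1, Fli1, Actb, Piwil2, Abcd2 and Sdccag8 among the genes below, so their windows lie at the gene end with more coverage, which may not be the start. The lowest H4K5pr value exceeded the highest H4K5ac value in 665 genes (4.98%), and the reverse held in 138 genes (1.03%). Of the 13355 genes, 277 had no H4K5ac in any library and 76 had no H4K5pr. Such genes can part in a single direction only, and they were not taken out of these counts.

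The 8 largest differences toward H4K5pr were in Gpihbp1, Clec4g, Fli1, Nfkbid, Prkg1, Tfe3, Plxnd1 and Xiap. Clec4g encodes a lectin receptor of liver sinusoidal endothelial cells, and its start lies at base 3720651 of chromosome 8. Its window held no H4K5ac peak in any library and 2526, 2570, 2478 and 2783 covered bp of H4K5pr in WT 1B, WT 2B, PA 1B and PA 2B, a difference of 2589 ± 116 bp (SE, limma adjusted p = 0.00166, 0.067 with the block). It entered the test through its H4K5pr libraries alone, and with no spread in H4K5ac its p rests on the spread of H4K5pr and of the other genes. Gpihbp1, which carries lipoprotein lipase across capillary endothelium, had 625, 500, 0 and 0 bp of H4K5ac and 3140, 3022, 2776 and 3598 bp of H4K5pr, a difference of 2853 ± 231 bp (adjusted p = 0.0221, 0.127 with the block). Fli1, an ETS transcription factor of endothelial and blood cells, had 250 ± 500 bp of H4K5ac and 2628 ± 669 bp of H4K5pr (SD, n = 4). Plxnd1, a semaphorin receptor of vessels, had 720 ± 832 and 2732 ± 466 bp. These windows were not bare of other acetyl marks, since H3K9ac covered a mean of 3203 bp in the Clec4g window, 4941 bp in the Gpihbp1 window and 3724 bp in the Fli1 window.

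Nfkbid, a nuclear regulator of NF-kB, had 250 ± 289 bp of H4K5ac and 2566 ± 446 bp of H4K5pr, and Prkg1, the cGMP-dependent protein kinase, had 16.2 ± 32.5 and 2252 ± 296 bp (SD, n = 4). Tfe3, a transcription factor of lysosome genes on chromosome X, had 2098, 2058, 1779 and 1195 bp of H4K5ac and 3726, 4007, 3813 and 3753 bp of H4K5pr in WT 1B, WT 2B, PA 1B and PA 2B. Xiap, an X-linked inhibitor of caspases, had 2949 ± 364 and 4926 ± 149 bp. For Tfe3 and Xiap both marks were present in every library and the H4K5pr windows were wider in each. Of the 20 genes, 4 were on chromosome X, and 2 of these, Smc1a and Ribc1, start 133 bp apart and share nearly all of their window. The H4K5ac mean was under 500 bp in 11 of the 20 windows, and in 4 no H4K5ac library held a peak. Among the 20 were also Hic1, a transcriptional repressor gene with 26.0 ± 52.0 bp of H4K5ac and 1787 ± 170 bp of H4K5pr, the ethanol-oxidising cytochrome gene Cyp2e1, the EGF receptor inhibitor gene Errfi1 and the cytoplasmic actin gene Actb. H4K5pr filled the windows of Cyp2e1, Errfi1 and Actb in all 4 libraries (5000 bp). With no spread in H4K5pr, their p rests on the spread of H4K5ac and of the other genes.

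**Figure D4:**
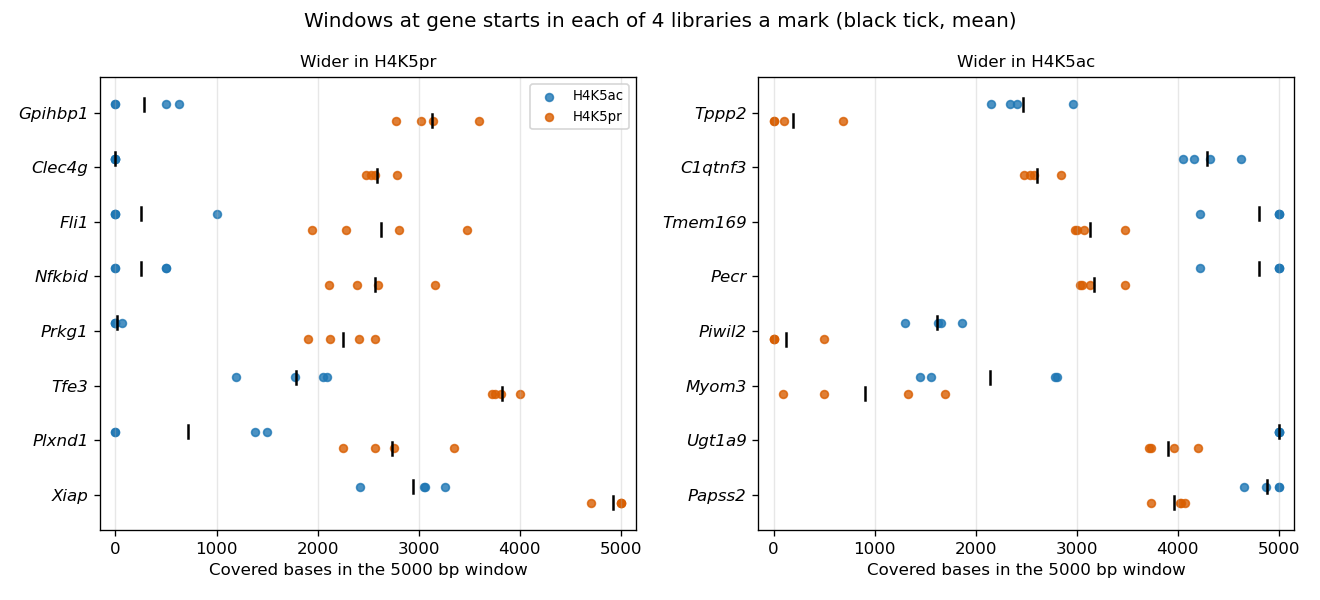
Covered bases in the 5000 bp window at the gene start (horizontal axis) for the 8 largest differences in each direction among the genes that passed, with a point for each of 4 libraries a mark and a black tick for the mean. H4K5ac is at 0 in every library for Clec4g, and H4K5pr is at 0 in 3 of 4 libraries for Piwil2.

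The 10 genes wider in H4K5ac ranged from liver enzymes to genes known from muscle and the germ line. Tppp2, of a family of proteins that bind tubulin, had 2411, 2343, 2964 and 2151 bp of H4K5ac and 104, 0, 0 and 685 bp of H4K5pr in WT 1B, WT 2B, PA 1B and PA 2B, a difference of -2270 ± 229 bp (SE, limma adjusted p = 0.0376, 0.133 with the block). No H4K5pr library reached the lowest H4K5ac library. H3K27ac covered a mean of 2146 bp there and H3K9ac 138 bp. Piwil2, a Piwi protein of the germ line, had 1660, 1303, 1629 and 1867 bp of H4K5ac and 500 bp of H4K5pr in PA 2B, with 0 bp in the other libraries. At the other genes H4K5pr was present but narrower. C1qtnf3, a secreted C1q-like protein, had 4289 ± 250 bp of H4K5ac and 2609 ± 162 bp of H4K5pr. Ugt1a9, a liver glucuronosyltransferase, was filled by H4K5ac in all 4 libraries (5000 bp) and had 3904 ± 230 bp of H4K5pr. With no spread in H4K5ac, its p rests on the spread of H4K5pr and of the other genes. Papss2, which makes the sulfate donor for sulfation reactions, had 4884 ± 160 and 3963 ± 155 bp, and Myom3, a muscle M-band protein, had 2147 ± 747 and 905 ± 739 bp. Pecr, a peroxisomal enoyl-CoA reductase, and Tmem169 start 52 bp apart and count as 1 region, with 4804 ± 391 bp of H4K5ac and 3173 ± 206 bp of H4K5pr in the Pecr window. Abcd2, a peroxisomal fatty acid transporter, and Sdccag8, a centrosome protein, were the remaining genes.

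Beyond the start, H4K5pr covered more of the bodies of a small set of genes than H4K5ac did, among them genes of plasma proteins and of the urea cycle. Body coverage is the percent of a gene's bases outside the 5000 bp window that lie under a peak, for genes with at least 2500 bp left, a measure added after the data had been seen. Of 9680 genes tested, 10 were more covered by H4K5pr (0.103%) and 2 by H4K5ac (0.0207%), in limma with Benjamini-Hochberg adjustment, while the median difference over all genes was -0.495 percentage points. The lowest H4K5pr value exceeded the highest H4K5ac value in 248 bodies (2.56%), and the reverse held in 361 (3.73%). Bodies that held a single mark can part in a single direction only, and they were not taken out. With preparation as a block no gene passed (0.0%, lowest adjusted p = 0.057, with 597 and 1407 genes at an unadjusted p under 0.05), and none passed with 1 preparation left out (lowest adjusted p from 0.0591 to 0.135). With equal numbers of peaks 10 passed toward H4K5pr and 0 toward H4K5ac.

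The largest difference was in Ass1, argininosuccinate synthase of the urea cycle. H4K5ac covered 14.3%, 13.0%, 18.9% and 16.7% of its body and H4K5pr 74.2%, 78.8%, 98.9% and 86.0%, in WT 1B, WT 2B, PA 1B and PA 2B. The difference was 68.8 ± 3.93 points (SE, adjusted p = 0.00335, 0.057 with the block). The body of Alb, the gene of the main plasma protein, was covered 32.9%, 35.0%, 28.6% and 19.5% by H4K5ac and 91.9%, 95.1%, 93.6% and 94.1% by H4K5pr, a difference of 64.7 ± 3.32 points (adjusted p = 0.0033, 0.057 with the block). For both genes every H4K5pr library lay above every H4K5ac library. Cps1, carbamoyl phosphate synthetase at the entry of the urea cycle, had 16.2 ± 7.72% of H4K5ac and 69.3 ± 18.3% of H4K5pr, and Ttr, the thyroxine and retinol transport protein transthyretin, had 19.2 ± 9.13% and 78.0 ± 3.88% (SD, n = 4). Sds, serine dehydratase of gluconeogenesis, had 4.81 ± 9.11% and 42.5 ± 9.76%, and Dbi, the acyl-CoA binding protein, 37.5 ± 7.65% and 69.5 ± 3.06%. Errfi1 was covered 56.5 ± 4.14% by H4K5ac and 100% by H4K5pr in all 4 libraries, and Sdc4, a heparan sulfate proteoglycan, 63.1 ± 3.46% and 91.0 ± 8.52%. Bloc1s6, which serves lysosome-related organelles, had 1.47 ± 2.95% and 17.2 ± 2.45%. Nyx, on chromosome X, had 0% and 1.68 ± 0.125%. The 2 genes on the H4K5ac side were as small, with 0% of H4K5pr in all libraries. H4K5ac covered 3.91 ± 0.301% of the body of Ttll12 and 2.98 ± 0.521% of that of Ms4a13. Nyx entered the test through its H4K5pr libraries alone, and Ttll12 and Ms4a13 through their H4K5ac libraries alone. With no spread in the absent mark, their p rests on the spread of the present mark and of the other genes. H4K5pr had no spread in the Errfi1 body, so its p rests on the spread of H4K5ac and of the other genes.

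Hepatocyte genes as a list were more covered in their bodies by H4K5pr. Of the 17 members with a body long enough, 16 had a higher mean in H4K5pr, 3 passed the test (Alb, Cps1 and Ttr), and in 9 the 4 H4K5pr libraries lay above the 4 H4K5ac libraries, as they did in 2.56% of all genes tested. The mean over the 17 was 24.7%, 33.4%, 30.3% and 25.5% in the H4K5ac libraries of WT 1B, WT 2B, PA 1B and PA 2B and 52.1%, 67.4%, 66.6% and 65.2% in the H4K5pr libraries. The list's median difference was 33.6 points, against -0.495 points for all genes. The fibrinogen genes Fga, Fgb and Fgg stood at means of 20.2%, 9.82% and 21.7% in H4K5ac and 84.4%, 62.8% and 70.3% in H4K5pr, and did not pass. The genes of gluconeogenesis and the urea cycle had 13 of 18 bodies higher in H4K5pr, a median of 12.9 points and 3 that passed (Ass1, Cps1 and Sds), of which Cps1 is in both lists. Pck1, the committing enzyme of gluconeogenesis, was covered throughout by H4K5pr in all 4 libraries and 56.2 ± 13.4% by H4K5ac, with an adjusted p of 0.0713 in limma. The medians of other metabolic lists stood nearer to that of all genes. The medians were -0.642 points for propionate and methylmalonate metabolism (5 of 14 higher), -0.672 for branched-chain amino acid breakdown (5 of 15) and 1.04 for cytochrome P450 genes (18 of 26). Hepatocyte transcription factors had a median of 2.13 points with 13 of 15 higher, and 0 members of these 4 lists passed. Over all genes, 3681 of the 9680 bodies tested had a higher mean in H4K5pr. The share higher was above that of all genes for cytochrome P450 genes and hepatocyte transcription factors. The same held for the hepatocyte list and the list of gluconeogenesis and urea cycle genes. The share was not above that of all genes for the propionate and branched-chain lists.

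**Figure D5:**
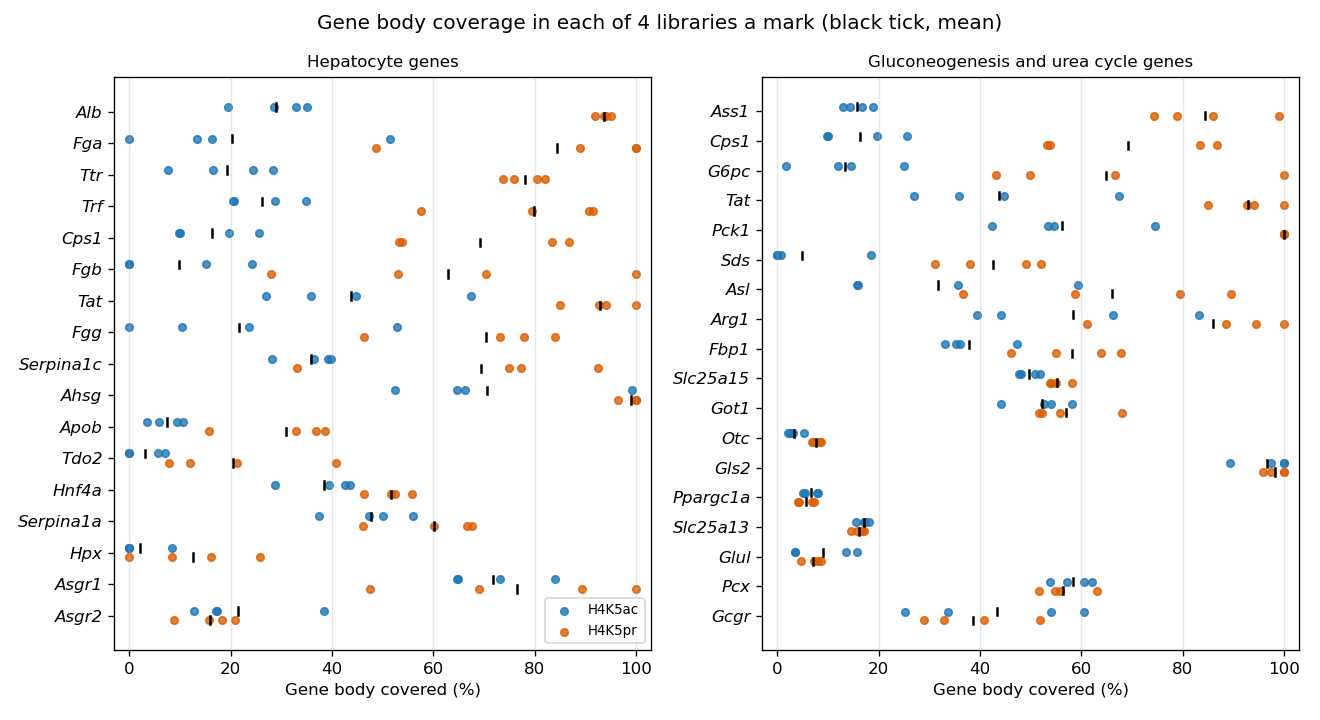
Percent of the gene body covered (horizontal axis) for the hepatocyte list and for the list of gluconeogenesis and urea cycle genes, ordered by the difference, with a point for each of 4 libraries a mark and a black tick for the mean. Alb and Ass1 stand at 93.7% and 84.5% in H4K5pr and at 29.0% and 15.7% in H4K5ac, and the genes at the bottom of each panel overlap.

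At H4K12 the propionyl mark was also the higher one in these bodies. The hepatocyte list had 57.7 ± 13.9% of H4K12ac and 79.5 ± 8.48% of H4K12pr, next to 28.5 ± 4.08% of H4K5ac and 62.8 ± 7.18% of H4K5pr (SD, n = 4), so H4K5ac was the lowest of the 4 marks. Alb had 73.1% of H4K12ac and 93.7% of H4K12pr on average, and Ass1 77.9% and 98.1%. The difference between propionyl and acetyl marks was 44.1 points larger at H4K5 than at H4K12 in Alb (limma adjusted p = 0.029) and 48.6 points larger in Ass1 (adjusted p = 0.029). Over 11007 gene bodies, 36 had a larger difference at H4K5 (0.327%) and 313 a smaller one (2.84%), and with the preparation block no gene passed (0.0%, lowest adjusted p = 0.0985, with 482 and 2062 genes at an unadjusted p under 0.05). Acetylation of H4 lysine 16 (H4K16ac) covered a mean of 4.34% of the Alb body and its butyrylation (H4K16bu) 14.4%, both in the preparations labelled A. Its propionylation (H4K16pr, Thermo antibody), in the same preparations as H4K5, covered 3.53%. For the Ass1 body the means were 3.20%, 2.95% and 2.49% in the same order. The propionyl mark was thus not the higher one at lysine 16 in these bodies, though the preparations differed as well.

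The lists of other liver cell types gave few calls at gene starts. In the sinusoidal endothelial list 19 genes were measured, but 4 of them (Clec4g, Kdr, Cdh5 and Erg) had no H4K5ac in any library and could be wider only in H4K5pr. Of the other 15, 13 had a wider mean in H4K5pr (62.3% of all genes with both marks did), with a median of 240 bp beside 117 bp, and none of the 15 passed. Kdr, the VEGF receptor of endothelium, had no H4K5ac in any library and 1147 ± 508 bp of H4K5pr (adjusted p = 0.138), and Egfl7, a secreted endothelial factor, had 872 ± 593 and 2994 ± 1683 bp (adjusted p = 0.318). The mean over all 20 genes of the list ran from 665 to 1168 bp in the H4K5ac libraries and from 1207 to 1784 bp in the H4K5pr libraries. These means include the 4 genes without H4K5ac, which add to H4K5pr alone, so they do not describe the other 15. Whole-liver lists do not show in which cells, or in how many, a mark lay. Of the stellate and fibroblast list 5 of 20 genes were measured. Pdgfra had no H4K5ac and 610 ± 111 bp of H4K5pr (adjusted p = 0.0875), and the other 4 had a wider mean in H4K5pr, with Vim at 698 ± 218 and 2142 ± 375 bp (adjusted p = 0.0704). The defining genes Lrat, Des, Col1a1 and Col3a1 had no covered base at the start in any library of either mark. Of the Kupffer cell and macrophage list 6 of 20 were measured and 1 of these held no H4K5ac. Of the other 5, 2 were wider in H4K5pr, among them Spi1, the myeloid transcription factor PU.1, at 552 and 1837 bp (adjusted p = 0.142). Cholangiocyte genes had 7 of 8 wider in H4K5pr, with Sox9 at 1686 and 2746 bp (adjusted p = 0.164), and lymphocyte genes 1 of 4. The neuron list, whose genes should be silent in liver, had a mean of 207 ± 83.3 bp in H4K5ac and 316 ± 66.2 bp in H4K5pr, against 3927 ± 300 and 4552 ± 143 bp for the hepatocyte list, the pattern of the labelled tissue.

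Among the functional lists the medians at gene starts lay on both sides of that of all genes, of which 62.7% were wider in H4K5pr. The hepatocyte list stood at 473 bp (16 of 20 wider in H4K5pr) and hepatocyte transcription factors at 266 bp, where Hnf4a went the other way with 4454 ± 357 bp of H4K5ac and 3636 ± 60.2 bp of H4K5pr (adjusted p = 0.133). Cytosolic ribosomal protein genes had 28 of 30 wider in H4K5pr with a median of 388 bp, and clock genes had a median of 306 bp, with Bhlhe41 at 852 and 2126 bp (adjusted p = 0.091). Mitochondrial ribosomal protein genes stood at 63.0 bp and respiratory chain subunits at 69.8 bp. Medians below 0 were found for acute phase, complement and coagulation genes (-32.2 bp), branched-chain amino acid breakdown (-49.1 bp) and propionate metabolism (-14.2 bp). In the propionate list 8 of 17 were wider in H4K5pr and 0 passed, and Pcca itself had 4005 ± 295 bp of H4K5ac and 3991 ± 226 bp of H4K5pr (adjusted p = 0.997). Members of the 29 lists that passed at the start included Clec4g and Cyp2e1.

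Few regions were held by every library of 1 mark and by none of the other. The peaks of the 8 libraries merged into 106734 regions, of which 23553 held a peak in all 8 libraries. H4K5ac alone, in 4 of 4 libraries and with no H4K5pr peak, marked 160 regions (0.150%), and H4K5pr alone marked 152 (0.142%). The balance of these counts depended on the sizes of the lists, with 65 and 330 at equal numbers of peaks and 1 of H4K5ac alone at equal covered length. Peaks of a single library were far more frequent, since 35504 regions (33.3%) held 1 H4K5ac library and no H4K5pr library and 9375 (8.78%) held the reverse, both with a median width of 500 bp. A gene start lay in or within 1000 bp of 1 of the 160 regions (0.625%) and 37 of the 152 (24.3%). The same held for 38.9% of the regions held in all 8 libraries. Chromosome X held 0 and 5 of them, of 1641 merged regions on X in all. The longest H4K5ac regions were 5502 bp on chromosome 6, 12761 bp from the start of the paraoxonase gene Pon1, 4899 bp within Peli1 on chromosome 11, and 4510 bp on chromosome 10, nearest to Cep85l. The longest H4K5pr regions covered the start of Tinagl1 on chromosome 4 (3968 bp), the start of Zfp503 on chromosome 14 (3345 bp), and a part of Ppp1r16b on chromosome 2 (3238 bp). These counts moved by more than 1.5 times with 1 preparation left out, to between 527 and 666 regions of H4K5ac alone and between 366 and 482 of H4K5pr alone.

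The parting of the marks did not differ detectably between the genotypes at this number of animals. The differences of H4K5pr minus H4K5ac were compared between the 2 PA and the 2 WT preparations, and in limma with Benjamini-Hochberg adjustment 0 genes were higher in PA (0.0%) and 0 were lower (0.0%), with 500 and 354 at an unadjusted p under 0.05. The log2 ratio of median peak width was 0.56 in WT and 0.44 in PA, that of peak number -0.29 and -0.24, and that of the X share 0.79 and 0.67. Percent of starts covered differed by 6.10 points in WT and 6.36 points in PA. Both genotypes thus had the same sign for each measure, and with 2 preparations each a genotype difference in these values was not tested.

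Against H4K12 the propionyl minus acetyl difference at gene starts was larger at H4K5 in 9 of 13951 genes (0.0645%) and smaller in 0 (0.0%), by limma with Benjamini-Hochberg adjustment. With quantile normalization the split was 3 and 2, and with the preparation block no gene passed (0.0%, lowest adjusted p = 0.172, with 1399 and 423 genes at an unadjusted p under 0.05), as in each fit without 1 preparation. Fli1 and Clec4g were among the 9, with differences of 3198 and 3402 bp between the sites. At Clec4g H4K12ac had a mean of 1604 bp and H4K12pr 790 bp, so the acetyl mark was the wider one at H4K12, while no H4K5ac peak was listed in this window.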

How the data were processed

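The deposited lists hold positions of enriched regions on GRCm38 (mm10), 1 list for each library, with no other value and no width under 500 bp. The submitters' processing notes name HOMER 4.10 beside bedtools 2.31.0, SAMtools 1.17, Bowtie2 2.5.1, cutadapt 3.5 and R 4.1.2, without their roles. The sources used here do not state how peaks were called, the read depth or a use of the inputs. An unlisted region is therefore not an unmarked one.

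Groups came from the labels. The marks of a preparation share an input label, which is the pairing, and their deviations from the group means correlated at r = 0.242 in WT and 0.265 in PA. The labels call the 2 livers of a genotype biological replicates. The 7 rows on chromosome Y were removed. Gene starts came from a RefSeq promoter table (GRCm38.p6) for 17274 of 21631 protein-coding genes, taking the start with the highest mean coverage over all 38 libraries where several were listed. For the other 4357, Spi1, Sox9, Aurkb, Cps1, Ttr, Sds and Bloc1s6 among them, the gene end with the higher mean coverage stood in.

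Covered bases were fitted with limma 3.58.1 in R 4.3.3 on genotype and mark, with the trend and Benjamini-Hochberg adjustment at 0.05. Single library measures were tested by exact two-sided permutation over the 16 arrangements within preparations. A peak counted as at a start if it touched the 1000 bp on either side of one. Windows cannot exceed 5000 bp, so filled windows cannot differ. The fits by mark of windows and bodies were also run on simulated data. These held no effect of preparation, so they cannot check a fit without the preparation block. Python 3.11.15, numpy 2.4.6 and pandas 2.3.3 did the rest.

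The members and the 29 gene lists were chosen with earlier results of these data known. Of 665 list symbols 663 were found. Named genes are the 8 largest differences in each direction that passed with the same sign in all 4 preparations, up to 4 members a list that passed or else the 2 with the smallest p, up to 3 genes a direction of the other fits, the 3 longest regions of each mark, and Alb. Predicted genes were not named, and a few genes that the rule selected are not reported here. The gene body measure, the chromosome X share, the gap counts, the fits on listed starts and with quantile normalization plus block, and further genes of bodies, starts and X were added after the data had been seen.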

Additional observations from a re-analysis of the deposited data

Results flagged for a closer look

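Single libraries that stood apart from the other 3 of their mark were searched in 88 sets of 4 values, of which chance alone gives about 1 in 20, and 11 were found. In 7 of them the other 3 libraries shared 1 value, either 0 or a full window, so that any other value stands apart. The Fli1 window held 1000 bp of H4K5ac in PA 1B and 0 in the others, and the Prkg1 window 65.0 bp of H4K5ac in PA 1B and 0 in the others. The Piwil2 window held 500 bp of H4K5pr in PA 2B and 0 in the others, and the Bloc1s6 body was covered 5.89% by H4K5ac in PA 2B and 0 in the others. The Xiap window held 4702 bp of H4K5pr in PA 2B and 5000 bp in the others. The shared window of Tmem169 and Pecr held 4218 bp of H4K5ac in WT 1B and 5000 bp in the others, which counts for both genes.

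The Sds body was covered 18.5% by H4K5ac in PA 1B and at most 0.778% in the others. The Tppp2 window held 685 bp of H4K5pr in PA 2B and at most 104 bp in the others. The Errfi1 window held 4152 bp of H4K5ac in WT 2B and 4375 to 4400 bp in the others, and the Papss2 window 3733 bp of H4K5pr in WT 2B and 4019 to 4071 bp in the others. None of these values reached the range of the other mark.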

How the results depend on the processing

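Depth is unknown, and 4 preparations cannot give an exact p below 0.125 (0.0556 with labels permuted within genotypes). Covered length, the share of peaks at gene starts and the X share kept their direction under every alternative run, whereas peaks of at least 1000 bp reversed peak number (0.0539) and median width (-0.0918). Counts of genes wider in H4K5pr, 20 as reported, were 0 with the replicate block, alone or with quantile normalization, in WT or PA alone and with any preparation left out (0 to 0), 84 with a window of 5 kb on each side, 82 for whole genes, 36 with equal numbers of peaks, 56 with equal covered length, 5 with quantile normalization and 11 without the trend. Genes wider in H4K5ac, 10 as reported, were 0 in the same fits and without the filter, 27 with the larger window, 26 for whole genes, 6 with equal covered length, 2 with quantile normalization and 3 without the trend. Of the 20 and 10 genes, 18 and 7 passed again with equal numbers of peaks and 5 and 2 with quantile normalization, which moved the median difference from 124 to -15.6 bp. Over whole genes the difference turned for Ugt1a9 (2.72 points) and Rgl1 (-0.334 points). Gene bodies toward H4K5pr, 10 as reported, were 0 with the replicate block, in either genotype and with any preparation left out, 16 without the filter and 29 without the trend. Those toward H4K5ac, 2 as reported, were 0 in the same fits and with equal numbers of peaks, 1 with quantile normalization, 19 without the filter and 129 without the trend. Without the filter 18 and 13 genes passed as higher and lower in PA, where 0 passed otherwise. Genes with a larger difference at H4K5 than at H4K12, 9 as reported, were 3 with quantile normalization (and 2 with a smaller one) and 0 with the replicate block or any preparation left out. Regions with H4K5ac alone, 160 as reported, were 65 with equal numbers of peaks, 1 with equal covered length, 20 with peaks of at least 1000 bp and 527 to 666 with a preparation left out. Regions with H4K5pr alone, 152 as reported, were 239 with at least 50% of the region covered, 330 with equal numbers of peaks and 366 to 482 with a preparation left out. The causes were not tested, apart from the smaller number of libraries where some were left out.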

Other observations

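Over all genes tested 62.7% of windows were wider in H4K5pr, with a median of 124 bp. Of 26 cell cycle and DNA replication genes measured, 1 (Aurkb) held no H4K5ac and could be wider only in H4K5pr. Of the other 25, 19 were wider in H4K5pr, with a median of 162 bp. Among all genes with both marks 62.3% were, with a median of 117 bp, and 0 of the 26 passed. Aurkb, a mitotic kinase, had 0 bp of H4K5ac in all libraries and a mean of 1342 bp of H4K5pr (limma adjusted p = 0.138), and Mcm3, a subunit of the replicative helicase, had 1374 and 2154 bp (adjusted p = 0.143). Genes that write, erase or read histone acylation had 19 of 28 wider in H4K5pr with a median of 142 bp and 0 passed, near the share of all genes. The deacetylase genes Hdac8, on chromosome X, and Sirt1 had 906 and 2189 bp and 2192 and 2722 bp (adjusted p = 0.158 and 0.268). Saa2, an acute phase protein, went the other way with 2428 bp of H4K5ac and 866 bp of H4K5pr (adjusted p = 0.185), as did Fgf21, a fasting hormone, with 4204 and 3128 bp (adjusted p = 0.271).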
